A study of Mus musculus with 12 samples.

Results

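Protein arginine methyltransferases transfer methyl groups from S-adenosylmethionine (SAM) to arginine side chains of histones and RNA-binding proteins. Type I enzymes (Prmt1, Prmt2, Prmt3, Prmt6 and Carm1, also called Prmt4) leave asymmetric dimethylarginine, type II enzymes (Prmt5 and Prmt9) leave symmetric dimethylarginine, and Prmt7, a type III enzyme, adds a single methyl group. Prmt1 supplies most of the asymmetric mark in mammalian cells, and Prmt5 acts with its partner Wdr77 on the Sm proteins that build splicing particles. The 8 genes Prmt1, Prmt2, Prmt3, Prmt5, Prmt6, Prmt7, Prmt9 and Carm1 were followed in sorted mouse hair follicle stem cells (HFSCs), the cells of the bulge that rest in telogen and divide when the follicle enters anagen. The family was chosen because Prmt1 was higher in the Eed iKO libraries, so the values of the 8 genes in that comparison are given as a description, with no test. The rule did not use the hair cycle comparison, which was tested.

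All mice were of the strain C57BL/6J, and HFSCs were sorted from back skin by a gate on CD34+, EpCAM+ and Sca1- cells with high α6-integrin. The Eed iKO libraries came from mice of postnatal day 70 with floxed Eed, which encodes a core subunit of Polycomb repressive complex 2, and K15-CrePGR, a Cre that acts in the bulge once RU-486 is present. RU-486, a progesterone and glucocorticoid receptor antagonist, was put on the skin daily for 7 days. Control mice of the same age, labelled wildtype, received ethanol, so genotype, recombination and RU-486 cannot be told apart in this comparison. The anagen libraries came from wildtype mice of day 28 to 30 and the telogen libraries from wildtype mice of day 50 to 52, so phase and age cannot be told apart. There were 3 libraries in each of the 4 groups, made from amplified cDNA.

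All 8 genes were among the 17885 genes of the Eed iKO table and the 21915 genes of the hair cycle table, and all 8 passed the filter on low values, which left 15008 and 13457 genes for testing. Values are normalized counts, meaning the count of a gene divided by a scaling factor of its library. Differences are on the scale of log2(normalized count + 1), and a gene was called when its adjusted p in limma was under 0.05. The tables were normalized separately and only libraries within a table were compared. Reads on genes numbered 33269583 to 57063586 per library in the Eed iKO table, while depth is unknown for the hair cycle table. The labels were checked with Eed itself, whose mRNA was at a like level in both groups. Its normalized count was 1084, 1249 and 950 in control and 933, 1361 and 1001 in the libraries labelled Eed iKO, a log2 difference of -0.01 ± 0.22 (SE, n = 3 per group, limma adjusted p = 0.993). The floxed part of the gene was not analysed here, so total Eed mRNA does not show whether recombination took place, and the direction of each difference in that table rests on the labels. None of the 11 HFSC markers was at 0 throughout a table, and their summed normalized count was 1348320 to 1723920 in the Eed iKO table. In the hair cycle table it was 532603 to 664523 in 5 libraries and 237496 in telogen replicate 1. That low sum came from keratins, with Krt15 at 142406 there and at 344674 to 422433 in the other 5 libraries. Of the other markers, Lhx2 (11217) and Epcam (1864) were highest in that library, while Itga6 (4177) and Sox9 (4459) were lowest there. Cd34 (6433) lay above every anagen library but below the other telogen libraries (9159 and 8295).

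In the genome (GRCm38, GENCODE vM21), Prmt1 lies at chr7:44975989-44986568 on the minus strand and Prmt3 at chr7:49778346-49858265 on the plus strand. Eed is on the same chromosome, 45.0 Mb from Prmt1. Prmt2 lies at chr10:76207222-76237865, Prmt5 at chr14:54507187-54517525 and Prmt6 at chr3:110246109-110250998, all on the minus strand. Prmt7 lies at chr8:106210936-106252794, Prmt9 at chr8:77549397-77581338 and Carm1 at chr9:21546894-21592623, all on the plus strand. The exons of Prmt1, Prmt5 and Prmt9 overlapped no other annotated gene. By contrast, 23.4% of the exon bases of Prmt6 overlapped the antisense gene C130013H08Rik, and 21.1% of those of Carm1 overlapped Yipf2 on the other strand. No source used here states that strand was kept in counting, so reads from these stretches of Prmt6 and Carm1 are uncertain.

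Promoter sequences of 7 of the 8 genes were found in a RefSeq table of GRCm38.p6. Those of Prmt1 and Prmt2 are shown because these genes differed most between the hair cycle groups, in opposite directions. Only bases upstream of the first annotated transcript base are printed, 5′ to 3′ on the minus strand, chr7:44986569-44986670 for Prmt1 and chr10:76237866-76238115 for Prmt2. Capitals mark matches to 4 motifs, searched on both strands. The CCAAT box was taken by its name, the E-box as CACGTG, the GC box as GGGCGG and the E2F-type motif as GCGGGAA, and the last of these can overlap a GC box.
Prmt1: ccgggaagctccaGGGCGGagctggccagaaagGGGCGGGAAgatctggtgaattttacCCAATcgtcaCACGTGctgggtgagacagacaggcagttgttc
Prmt2: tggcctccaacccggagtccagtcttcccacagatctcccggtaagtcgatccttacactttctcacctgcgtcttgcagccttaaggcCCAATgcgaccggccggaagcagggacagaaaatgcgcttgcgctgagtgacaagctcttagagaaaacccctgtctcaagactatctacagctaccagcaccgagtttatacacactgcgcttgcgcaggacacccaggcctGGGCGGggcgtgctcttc
The motifs were chosen after these sequences had been seen, and a match describes letters only. The Prmt1 stretch held 1 CCAAT box, 1 E-box, 2 GC boxes and 1 E2F-type motif, which overlaps a GC box. The Prmt2 stretch of 250 bases held 1 CCAAT box and 1 GC box. Over the 250 bases before the RefSeq start, the CCAAT box was present in 33.8% of 32851 promoters, the E-box in 6.02%, the GC box in 32.7% and the E2F-type motif in 3.82%. Of the 7 promoters of the family, 4 held a CCAAT box, 2 an E-box (Prmt1 and Prmt3), 4 a GC box and 1 the E2F-type motif (Prmt1).

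Prmt1 was the member that set the libraries labelled Eed iKO apart. Its normalized count was 484, 572 and 591 in the control libraries and 1654, 1794 and 1630 in those labelled Eed iKO. The 3 libraries labelled Eed iKO lay close together and far above the controls, with means of 549 ± 57.0 and 1693 ± 88.6 (SD, n = 3). The log2 difference was 1.63 ± 0.19 (SE), a 3.09-fold higher level, and omitting any single library gave 1.54 to 1.68. The family was selected on this value. Prmt1 was also 1 of the 4 genes called by limma in this comparison, 0.0267% of the genes tested, and nothing is read from that here.

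Among the other type I enzymes, no group stood apart. Prmt2, a weak methyltransferase that binds nuclear receptors, had normalized counts of 562, 379 and 459 in control and 337, 341 and 531 in the libraries labelled Eed iKO. The groups overlapped, and the log2 difference was -0.23 ± 0.30 (SE). Prmt3, a cytosolic enzyme that methylates the ribosomal protein Rps2, had 1358, 1513 and 1495 against 1342, 1440 and 1318. Its groups overlapped within a narrow range, with a log2 difference of -0.09 ± 0.17. Prmt6, which methylates histone H3 in the nucleus, had 339, 200 and 121.5 in control against 302, 263 and 198. Its log2 difference of 0.31 ± 0.43 became -0.06 without control replicate 3. Carm1, a coactivator that methylates histone H3 and splicing factors, had 3969, 4002 and 5206 in control against 3799, 4513 and 3159. The groups overlapped, and the log2 difference was -0.20 ± 0.18.

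Of the type II and type III enzymes, Prmt5 was lower and the others overlapped between groups. Prmt5 had normalized counts of 1604, 1509 and 1443 in control and 1195, 1356 and 947 in the libraries labelled Eed iKO. Every library labelled Eed iKO lay below every control, and the log2 difference was -0.40 ± 0.19 (SE). It moved to -0.25 without Eed iKO replicate 3, the lowest library. Prmt9, which methylates the splicing factor Sf3b2, had 635, 666 and 453 against 704, 591 and 462, a log2 difference of 0.00 ± 0.27. Prmt7 had 1277, 789 and 803 against 784, 730 and 855, a log2 difference of -0.24 ± 0.24 that became -0.01 without control replicate 1, its highest library. The libraries separated completely by group for 2 of the 8 genes, Prmt1 and Prmt5, against 20.2% of all genes tested, and since the rule used this contrast nothing is read from that count. The median log2 difference of the 8 genes was -0.15, and that of all genes tested was 0.00.

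**Figure D1:**
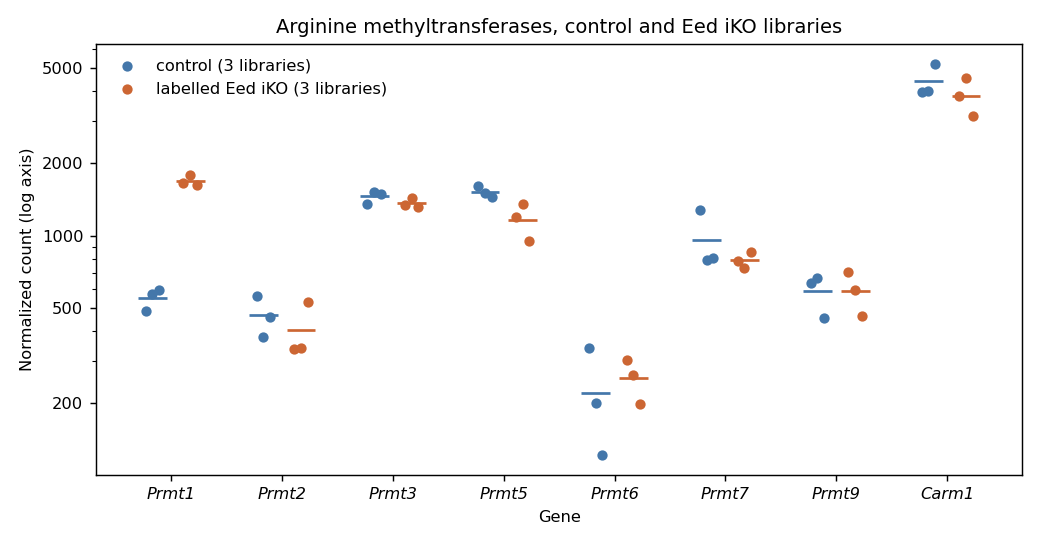
Normalized count (log axis) of each of the 8 genes in the 3 control libraries and the 3 libraries labelled Eed iKO, each point a library and each bar the mean of its group. Prmt1 sits at 1630 to 1794 in the libraries labelled Eed iKO and at 484 to 591 in control, while the groups of 6 other genes overlap and those of Prmt5 do not.

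Other measures of these libraries are given beside Prmt1. No gene of the proliferation, immune or fibroblast lists was called by limma, which called only 0.0267% of all genes tested here. All 8 proliferation genes had a log2 difference above 0, with a median of 0.96 against 0.00 over all genes tested. At an unadjusted p under 0.05 in limma, 2 of the 8 were higher, against 8.38% of all genes tested. The summed normalized count of 8 proliferation genes was 6402, 8460 and 7671 in control and 16182.5, 17107 and 7245 in the libraries labelled Eed iKO. In Eed iKO replicate 3 this sum lay within the control range, most of it from Pcna (5634), and Prmt1 was at 1630. There Cdk1 (57.3) and Mcm2 (456) were above their highest control values of 49.0 and 414. Ccnb1 (22.7), Ccna2 (89.0) and Mki67 (609) were below their lowest control values of 39.9, 124 and 639. The interfollicular marker sum was 56896 in that library, 39136.5 in control replicate 3 and 4279 to 12941 in the other libraries. Mki67, a marker of dividing cells, had 639, 2543 and 928 in control against 6125, 6301 and 609. The immune marker sum was 200 to 476 in control and 270 to 861 in the libraries labelled Eed iKO, and the fibroblast marker sum was 1686 to 3257 against 1276 to 1930. Of 6 tested immune genes, 4 had a log2 difference above 0. Among them Cd207, at low counts, was 0 in every control and 13.3 to 23.7 in Eed iKO (4.24 ± 1.07, SE, limma adjusted p = 0.130). Lyz2, not tested, was 0 in every control and 55.9, 65.1 and 0 in Eed iKO. The longest coding transcript of Prmt1 has 2147 bases, and genes in the same decile of transcript length had a median log2 difference of 0.09, with 29 of those 1436 genes above Prmt1. In the same decile of GC content the median was 0.04, with 26 of 1438 genes above Prmt1. The family was selected on this difference of Prmt1, so nothing is read from these ranks. The part of cell division, other cell types and library composition in the difference of Prmt1 was not tested.

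The 8 genes around Prmt1, within 50 kb, that were tested in this table did not share its difference. Their log2 differences ran from -1.16 ± 1.20 (SE) for Tsks, a gene of low counts, to 0.05 ± 0.34 for Cpt1c, and none was called. Bcl2l12 and Irf3, which start 12.1 kb and 11.1 kb upstream of the Prmt1 start, had -0.05 ± 0.31 and -0.36 ± 0.24. Scaf1 had -0.56 ± 0.21 (limma adjusted p = 0.260). The genes whose profile over the 6 libraries was most like that of Prmt1, by the root mean square difference of centred log2 values, were 2310011J03Rik (0.193), Znhit2 (0.194), Lars2 (0.200), Tsen34 (0.210) and 1700088E04Rik (0.215). Their log2 differences were 1.24 to 1.49, which follows from picking genes by likeness to Prmt1 over these libraries. Lars2, a mitochondrial leucyl-tRNA synthetase gene, was listed at 346617 to 441751 normalized counts in control and 858803 to 1167090 in the libraries labelled Eed iKO. The latter values lay above those of the keratin gene Krt15 (619962 to 707811) in the same libraries. Whether all these reads stem from Lars2 mRNA was not tested.

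In the hair cycle, Prmt2 fell from telogen to anagen, and Prmt1 had a higher mean in anagen but did not pass the test. Prmt2 had normalized counts of 65.4, 73.0 and 98.5 in anagen and 185, 201 and 166 in telogen. All 3 anagen libraries lay below all 3 telogen libraries, and the log2 difference, anagen minus telogen, was -1.23 ± 0.36 (SE, 95% confidence interval -2.01 to -0.44, limma adjusted p = 0.0481). This call was near the threshold. It was lost with no filter on low values (adjusted p = 0.0644, limma). It was also lost when any 1 of the 6 libraries was left out, with log2 differences of -1.40 to -1.11 and adjusted p of 0.0737 to 0.176.

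Prmt1 had normalized counts of 705, 276 and 538 in anagen and 214, 134 and 258 in telogen. Every anagen library was above every telogen library, although anagen replicate 2 lay close to telogen replicate 3. The log2 difference was 1.27 ± 0.39 (SE, 95% confidence interval 0.42 to 2.12), a 2.42-fold higher level, with limma adjusted p = 0.0566. The interval of this single gene leaves out 0 and the adjusted p does not pass. The adjusted p was 0.0334 without anagen replicate 2 and 0.0592 to 0.241 without any other library.

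Prmt9 had 189, 282 and 243 in anagen and 478, 350 and 401 in telogen, again without overlap. Its log2 difference of -0.79 ± 0.28 (95% confidence interval -1.40 to -0.17) did not pass, with limma adjusted p = 0.0971. Prmt3 had 604, 342 and 223 in anagen and 662, 482 and 684 in telogen, where the anagen libraries were spread widely and overlapped telogen. Its log2 difference was -0.75 ± 0.35 (95% confidence interval -1.51 to 0.02, limma adjusted p = 0.194).

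The other 4 genes overlapped between phases and none was called. Prmt5 had 427, 310 and 317 in anagen and 308, 297 and 387 in telogen, a log2 difference of 0.08 with a 95% confidence interval of -0.51 to 0.67. Prmt6 had 50.0, 74.5 and 67.4 against 76.7, 24.3 and 61.8, a log2 difference of 0.37 (interval -0.80 to 1.53) that became -0.12 without telogen replicate 2. Prmt7 had 246, 222 and 165 against 90.6, 292 and 257, and Carm1 had 201, 250 and 169 against 65.9, 205 and 264. Both were lowest in telogen replicate 1, the library with low keratin counts. The log2 differences of Prmt7 and Carm1 were 0.13 (interval -0.84 to 1.10) and 0.41 (interval -0.64 to 1.47), and both turned negative without that library, to -0.40 and -0.19. These intervals span changes of more than 1 log2 unit in a direction for each of Prmt6, Prmt7 and Carm1, so the groups are not shown to be alike.

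**Figure D2:**
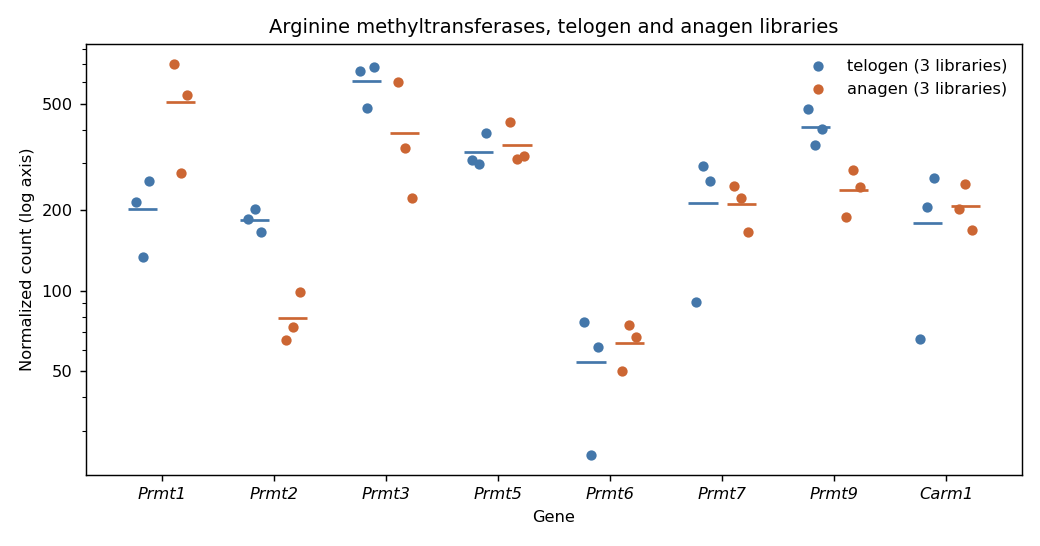
Normalized count (log axis) of each of the 8 genes in the 3 telogen and the 3 anagen libraries, each point a library and each bar the mean of its group. Prmt1 is higher in every anagen library, Prmt2 and Prmt9 are lower in every anagen library, and the other 5 genes overlap.

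By limma, 1 of the 8 genes was called lower in anagen and 0 were called higher, against 4.35% and 7.22% of all genes tested. At an unadjusted p under 0.05, 1 gene was higher (Prmt1) and 2 were lower (Prmt2 and Prmt9), against 15.1% and 12.2% of all genes tested, so these counts are near the background as well. Complete separation by phase was seen for 3 of the 8 genes, close to the 33.3% of all genes whose groups did not overlap, so that count alone does not set the family apart. The median log2 difference was 0.11 over the 8 genes and 0.01 over all genes tested. Proliferation genes moved strongly with phase, with 8 of 8 called higher in anagen and Mki67 at 10404 to 14954 against 276 to 431. The melanocyte marker sum was 435 to 770 in anagen and 72.7 to 151 in telogen, and most of it was Dct. Dct was called higher (log2 2.51 ± 0.37, limma adjusted p = 0.00187), Tyrp1 and Pmel had higher means but were not called, and Mlana and Sox10 were not tested. The matrix marker sum was 410 to 620 against 775 to 829, with Msx2 called lower (-1.60 ± 0.31, limma adjusted p = 0.00806). Shh, Hoxc13 and Lef1 overlapped between phases and were not called. The fibroblast marker sum was 421 to 608 against 316 to 648, and its tested genes were split in direction. Of the 4 tested, 2 were called higher in anagen, Col1a1 (log2 2.06 ± 0.41, limma adjusted p = 0.00928) and Dcn (4.05 ± 0.83, adjusted p = 0.0106). Col1a2 (-0.997 ± 0.369, limma adjusted p = 0.108) and Pdgfra (-1.02 ± 1.09) were lower in anagen and were not called. Col1a2 had 154 to 229 in anagen and 233 to 600 in telogen, without overlap. The sebaceous marker sum was 1489 to 1767 against 570 to 2116, with Awat2 called lower (-2.64 ± 0.59, limma adjusted p = 0.0154). Their part in the differences of Prmt1 and Prmt2 was not tested. In RNA from sorted cells, fewer cells of a type and less RNA per cell cannot be told apart. The genes most like Prmt1 over these 6 libraries were Mcm8 (root mean square difference 0.189), Cby1 (0.197), Gimap9 (0.220), Wipi1 (0.229) and Tcf19 (0.231), and none of them was among the 5 found in the Eed iKO table.

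**Figure D3:**
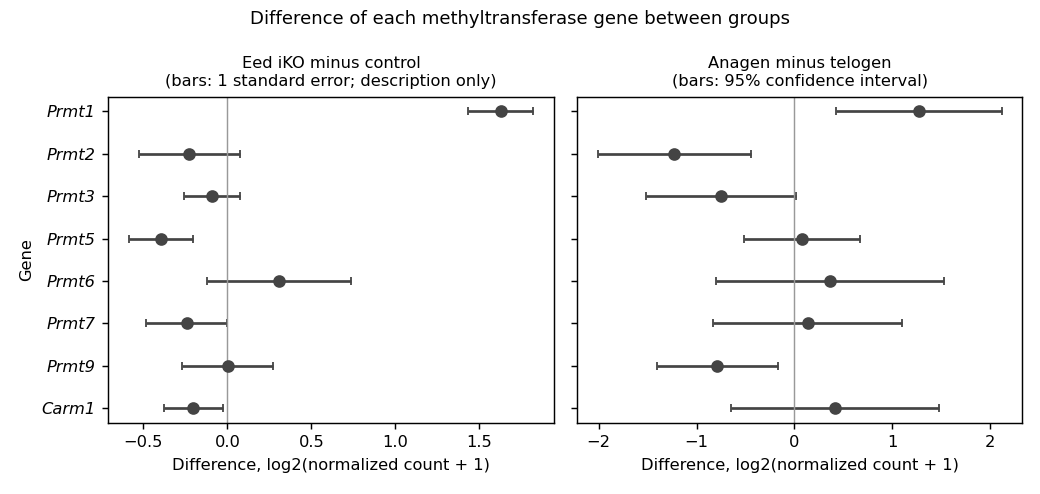
Difference in log2(normalized count + 1) of each of the 8 genes, with 1 standard error for the libraries labelled Eed iKO minus control and the 95% confidence interval for anagen minus telogen. Prmt1 is at 1.63 and 1.27, the highest of the 8 genes in each panel, and Prmt2 is at -0.23 and -1.23.

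To compare levels between genes, each normalized count was divided by the length in kb of the longest coding transcript. In control, Carm1 had the highest level per kb (1323 ± 212, SD, n = 3). It was followed by Prmt3 (581 ± 33.9) and Prmt5 (564 ± 30.0), which overlapped each other. Below these came Prmt7 (275 ± 80.1), Prmt1 (256 ± 26.5), Prmt2 (222 ± 43.7) and Prmt9 (210 ± 41.3), each overlapping the next. Prmt6 was lowest at 72.2 ± 36.0 and overlapped none of them. In the libraries labelled Eed iKO, Prmt1 stood second at 788 ± 41.3 per kb, with no overlap with Carm1 above it (1152 ± 204) or Prmt3 below it (545 ± 25.7), and the rest followed as Prmt5 (433 ± 76.5), Prmt7 (227 ± 18.0), Prmt9 (211 ± 43.6), Prmt2 (192 ± 52.8) and Prmt6 (83.3 ± 17.3). Prmt1 made up 6.38% to 7.95% of the summed level per kb of the 8 genes in control and 21.2% to 22.9% in the libraries labelled Eed iKO, a share that carries the value used for selection.

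In telogen, Prmt3 had the highest level per kb (243 ± 44.2), with no overlap with Prmt9 (147 ± 23.2), which overlapped Prmt5 (123 ± 18.2). Prmt1 (93.9 ± 29.3), Prmt2 (87.7 ± 8.42), Prmt7 (61.4 ± 31.0) and Carm1 (53.7 ± 30.6) followed, and Prmt6 was lowest at 17.8 ± 8.85, with overlap between neighbours from Prmt5 down to Prmt6. In anagen, Prmt1 had the highest mean (236 ± 101) but overlapped Prmt3 (155 ± 77.9) and Prmt5 (131 ± 24.5). Prmt9 followed at 85.7 ± 16.7, then Carm1 at 62.3 ± 12.3 and Prmt7 at 60.8 ± 12.0, each overlapping the next. Prmt2 at 37.6 ± 8.25 and Prmt6 at 21.0 ± 4.12 came last and overlapped no neighbour. Prmt1 made up 18.9% to 35.2% of the summed level in anagen and 8.41% to 12.9% in telogen. With the union of all exons as the length, Prmt1 kept the second place in each library labelled Eed iKO, and Prmt5 stood above Prmt3 in all 6 libraries of that table. Other places changed by group mean: Prmt1 (160) passed Prmt7 (156) in control and Prmt2 (119) passed Prmt9 (103) in Eed iKO. In telogen Prmt5 (83.6) passed Prmt9 (72.2) and Carm1 (36.7) passed Prmt7 (34.8), and in anagen Prmt5 (88.8) passed Prmt3 (65.0) and Carm1 (42.6) passed Prmt9 (41.9).

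**Figure D4:**
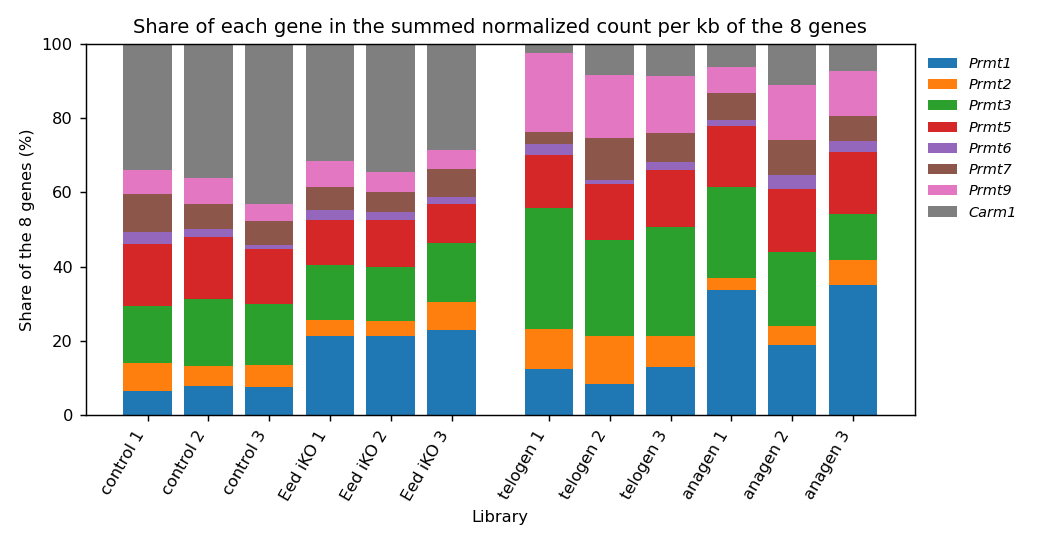
Share of each gene, in percent, in the summed normalized count per kb of the 8 genes, one bar per library. The Prmt1 share is 6.38% to 7.95% in control, 21.2% to 22.9% in the libraries labelled Eed iKO, 8.41% to 12.9% in telogen and 18.9% to 35.2% in anagen, and Carm1 holds the largest share in all 6 libraries of the Eed iKO table.

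Prmt8, a type I relative of Prmt1 known from brain, was near the floor of detection and was not tested. Its normalized count was 2.15 to 11.1 in the Eed iKO table. In the hair cycle table it was 0.89 to 5.21 in anagen and 6.33 to 28.9 in telogen. The 5 peptidylarginine deiminase genes, whose enzymes turn arginine into citrulline, also failed the filter in both tables, with summed normalized counts of 3.15 to 58.3. The mitochondrial arginine methyltransferase Ndufaf7 and the histone arginine methyltransferase Mettl23 were tested, and neither was called in either comparison.

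The wider pathway was taken as 67 genes, of which 61 were tested in each table. The lists were chosen with earlier results of these data known. No excess over all genes is therefore read from their counts in either comparison. The 67 are 59 partners, readers, substrates and genes of SAM supply and dimethylarginine breakdown, all of them tested, with 3 other arginine methyltransferases, of which Ndufaf7 and Mettl23 were tested, and the 5 deiminases, which were not. In the hair cycle, 11 of the 61 were called higher in anagen and 0 lower, against 7.22% and 4.35% of all genes, with a median log2 difference of 0.41. Of 18 tested proteins with arginine and glycine rich stretches, typical targets of Prmt1, 6 rose in anagen. They were led by Caprin1, a stress granule protein, at 9433 to 13078 normalized counts in anagen and 1982 to 5197 in telogen (log2 1.64 ± 0.32, SE, limma adjusted p = 0.00823). Hnrnpa1 and Hnrnpk, which bind and process mRNA, followed with 1.21 ± 0.21 (adjusted p = 0.00430) and 1.10 ± 0.19 (adjusted p = 0.00415, limma). The median of this list was 0.59.

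Among substrates of other members, Pabpc1, a poly(A)-binding protein methylated by Carm1, rose with a log2 difference of 1.78 ± 0.30 (limma adjusted p = 0.00410). It was the only 1 of 8 to pass, and Med12, a Carm1 target in the Mediator complex, had -1.03 ± 0.31 (adjusted p = 0.0571, limma). None of the 5 tested Sm and related substrates of Prmt5 was called, although all 5 log2 differences were above 0, with a median of 0.86, and 2 had an unadjusted p under 0.05 in limma. Of 11 partners, Btg2, an antiproliferative protein that binds Prmt1, and Riok1, an adaptor of Prmt5, rose by 1.20 ± 0.25 (limma adjusted p = 0.0128) and 0.89 ± 0.21 (adjusted p = 0.0210). Wdr77 had -0.08 ± 0.21 and was not called. Of 6 readers, which bind methylarginine through Tudor domains, Snd1 rose by 0.87 ± 0.21 (limma adjusted p = 0.0227) and Smndc1 by 0.88 ± 0.26, which only just passed. None of the 11 genes of SAM supply and dimethylarginine breakdown was called, with a median of 0.00, and 2 had an unadjusted p under 0.05. Without anagen replicate 1 the 11 calls of the pathway fell to 5, and without telogen replicate 1, 2 or 3 they numbered 13, 16 and 11.

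In the libraries labelled Eed iKO, 0 of the 61 pathway genes were called by limma or by edgeR. DESeq2 on the reads recovered from the table called 11 higher and 1 lower (Cnot7, which binds Prmt1), against 2.96% and 1.53% of all genes. At an unadjusted p under 0.05 in limma, 18 were higher and 1 lower, against 8.38% and 6.33%. By list, 10 of 18 arginine and glycine rich proteins, 3 of 5 Sm substrates, 4 of 8 other substrates and 1 of 11 partners were higher at that level, and 0 of 6 readers and 0 of 11 SAM and dimethylarginine genes. The medians were 0.41 for the arginine and glycine rich proteins, 0.71 for the Sm substrates and 0.33 for the other substrates, against 0.00 over all genes.

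The highest and lowest genes of each list show the spread. Taf15, an RNA-binding protein, had a log2 difference of 0.80 ± 0.21 (SE) and Trp53bp1 -0.21 ± 0.14. Of the Sm list, Lsm4 had 0.83 ± 0.29 and Snrpd3 -0.19 ± 0.26. Of the other substrates, Rps2, the target of Prmt3, had normalized counts of 11888, 7024 and 7160 in control and 20857, 23466 and 12917 in the libraries labelled Eed iKO, a log2 difference of 1.13 ± 0.25 (limma adjusted p = 0.105). Ribosomal protein genes have many processed copies in the genome, so reads of Rps2 are uncertain, and Crebbp was lowest of its list at -0.14 ± 0.14. Among partners Fam98a had 0.51 ± 0.26 and Cnot7 -0.54 ± 0.15, among readers Smndc1 had 0.38 ± 0.18 and Smn1 -0.40 ± 0.31, and among SAM and dimethylarginine genes Ddah1 had 1.29 ± 0.72 and Mat2a -0.27 ± 0.18. The sum of the arginine and glycine rich list was 144330 to 154232 in control and 183211 to 219653 in the libraries labelled Eed iKO. Without Eed iKO replicate 3, limma called 4 pathway genes and 203 of all genes.

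**Figure D5:**
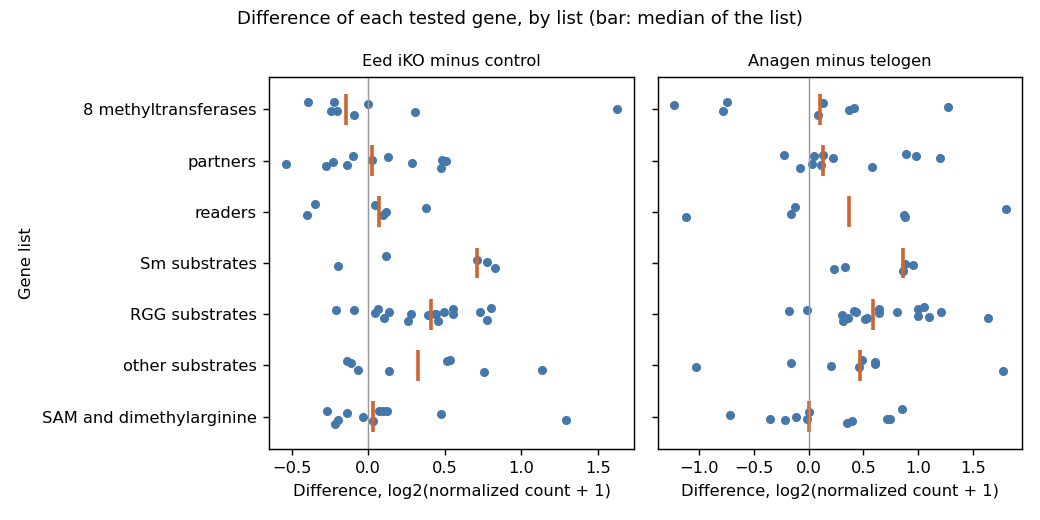
Difference in log2(normalized count + 1) of each tested gene by list, for the libraries labelled Eed iKO minus control and for anagen minus telogen, with each point a gene and each bar the median of its list. The medians of the arginine and glycine rich (RGG) list are 0.41 and 0.59 and those of the SAM and dimethylarginine list 0.03 and 0.00.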

How the data were processed

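RNA of 12 libraries, 3 per group, was amplified with the Ovation RNA-seq System V2 and sequenced by the authors as paired-end reads. The authors aligned the reads to Gencode vM20 transcripts (mm10) with Kallisto 0.42.5 and compared protein-coding genes with DESeq2. The authors deposited a signal for every gene, its count scaled with a DESeq2 size factor per library. The deposited columns of means, fold changes, standard errors, test statistics and p-values hold comparisons by the authors and were not used.

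Each table was fitted alone with limma 3.58.1 in R 4.3.3 on log2(value + 1), with an intensity trend, after filterByExpr at a minimum of 10, and p-values were adjusted by Benjamini-Hochberg over all genes tested. For Eed iKO and control, 100% of values were whole multiples of 1 step per library (within 0.01), so reads were recovered for DESeq2 1.42.0 and edgeR 4.0.16 as alternatives. In the hair cycle table at most 2.23% were whole, so depth and counting error are unknown there. The fits were tested on simulated data in which 200 genes carried a log2 difference of 1.5, and limma recovered 60.5% in the Eed iKO table (15117 genes, 8 false calls) and 49% in the hair cycle table (13441 genes, 6 false calls). Whole counts were simulated for both tables, with a spread set by the level of a gene alone. No spread particular to a gene or shared by libraries was included, so these rates do not measure power in the real data.

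The members and gene lists were chosen with earlier results of these data known. Genes named were the members, Eed, Prmt8, the genes within 50 kb of Prmt1, the 5 most like Prmt1 and, per list, up to 3 called in each direction or else the highest and lowest. Samples were grouped by their labels. The study describes the Eed iKO and control libraries as biological replicates drawn from more than 1 litter. For the hair cycle libraries the study gives the number and ages of the animals, but how animals map to libraries was not found stated. There the p-values measure the spread between libraries. The other settings tried were a pseudocount of 0.1, no filter, the replicate number as a block, TMM scaling and no trend. Each library left out, the thresholds of the study and exon union lengths were also tried. Those thresholds were taken as a log2 difference beyond 1.5 (Eed iKO) or 2 (hair cycle) at an unadjusted p under 0.05 in limma. A figure legend of the study gives a different cut for Eed iKO, a fold change of at least 1.5 with adjusted p under 0.05. Coordinates and lengths came from GENCODE vM21.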

Additional observations from a re-analysis of the deposited data

How the results depend on the processing

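For Prmt2 in the hair cycle, the log2 difference of -1.23 lost its call with no filter on low values (adjusted p = 0.0644) and with the replicate block (-1.23, adjusted p = 0.0902), and ran from -1.40 to -1.11 with each library left out. For Prmt1 the value of 1.27 passed with the block (adjusted p = 0.0293) and ran from 0.98 to 1.66 with each library left out. The count of members called in the hair cycle was 1, and 1 with the block, where the gene was Prmt1 in place of Prmt2. It was 0 with no filter and 0 at the thresholds of the study, and 0 to 1 with each library left out. Calls over all hair cycle genes numbered 1556, or 842 without a trend, 686 at the thresholds of the study and 597 to 1529 with each library left out, and pathway calls numbered 11, or 3 without a trend and 5 to 16. In the Eed iKO table, 4 genes were called, or 424 with the block, 2 without a trend, 263 at the thresholds of the study, 673 with DESeq2 and 1 to 203 with each library left out. Pathway calls there were 0, or 6 with the block, 12 with DESeq2 and 0 to 4 with each library left out. The cause of these shifts was not tested. Deviations of same-numbered libraries correlated at 0.04, 0.07 and 0.19 in the Eed iKO table and -0.07 to -0.03 in the hair cycle table. The numbers were not taken as pairs, a choice that these correlations cannot settle for the Eed iKO table, where all were above 0. The value of 0.19 was that of replicate 3. There the interfollicular marker sum was 39136.5 in control and 56896 in Eed iKO, against 4279 to 12941 in the other libraries of that table. The sebaceous marker sum was also highest there in each group (12041 and 9636). Whether those libraries share an origin was not tested. Lengths from the union of exons moved 27 of 32 group levels per kb by more than 1 SD. With 3 libraries a group, differences of the size of those of Prmt3 or Carm1 could not be told from replicate spread.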

Other observations

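Of the 4 genes called by limma in the Eed iKO table, 3 lie on chromosome 7, which also carries Eed. They are Prmt1, Tsen34 and Gm49369, and the other is Rps26 on chromosome 10. The shared chromosome was noticed after the calls were seen, and Prmt1 is the gene used for selection, so nothing is read from this count. The 3 genes are spread along the chromosome. Their lowest coordinates are 3692863 (Tsen34), 44975989 (Prmt1) and 142371096 (Gm49369), and that of Eed is 89954654. Gm49369 had normalized counts of 1623, 1876 and 3694 in control and was listed at 0 in all 3 libraries labelled Eed iKO. Chromosome 7 held 8.42% of the genes tested, 9.91% of the 424 genes called with the replicate block and 9.36% of the 673 called with DESeq2. Prmt3, also on chromosome 7 and 40.1 Mb from Eed, had a log2 difference of -0.09.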
